A study of Mus musculus with 2 samples.

Results

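Matrix proteases cut the collagens, proteoglycans and adhesive proteins that surround cells, and the TIMPs (tissue inhibitors of metalloproteinases) block them. Their transcripts were followed here across the adipocyte precursors of mouse subcutaneous fat. The set holds 10 of the 27998 genes of the count matrix, each found by its symbol: the matrix metalloproteinases Mmp2, Mmp3, Mmp14 and Mmp23, the secreted ADAMTS proteases Adamts1, Adamts2 and Adamts5, and the inhibitors Timp1, Timp2 and Timp3. The cells were flow-sorted adipocyte precursors of wild-type pups aged 12 days, reared by foster dams. The dams' milk fat was either high or low in its n-6/n-3 PUFA (polyunsaturated fatty acid) ratio, and each of these 2 conditions gave 1 sample, with 3000 sorted cells stated as input. The labels describe the cells both as fresh and as frozen and thawed. The matrix joins 2 libraries under barcode suffixes that no label ties to a diet, so they are called library 1 and library 2 with no diet attached.

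Fat tissue is remodelled as precursors move from a fibrous interstitial niche towards vessels and become fat cells. Mmp14 is a protease anchored in the cell membrane. It activates the secreted gelatinase proMmp2 in a complex that needs Timp2 as its receptor, so Timp2 both assists this step and, in excess, blocks it. Mmp14 is also known in mice as a collagenase needed for fat tissue to develop. Timp3 binds to the matrix itself and is the main physiological inhibitor of Adamts5, an aggrecanase and versicanase. Timp1 is a soluble inhibitor induced in injury and inflammation and inhibits Mmp14 poorly.

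Library 1 had 3321 barcodes and 42092816 UMIs (unique molecular identifiers, 1 for each captured transcript) and library 2 had 3584 barcodes and 43491307 UMIs. Both barcode counts exceed the 3000 sorted cells stated as input, for a reason not known here. Cells passing the filters numbered 6873, with medians of 12962 and 12109 UMIs, and 17 barcode sequences were shared by both. Clustering without the 10 genes gave 10 clusters, of which 7 held the 6760 precursors (98.4% of cells). Dpp4-type progenitor-like cells (1931), named after a peptidase that marks early interstitial progenitors, had 10 of 12 markers raised, of which Dpp4 itself was not one. Committed preadipocyte-like cells (1792) had 9 of 12, and Pparg, Fabp4 and Cd36 were not among the 9. F3-type stromal-like cells (355), named after coagulation factor III, had 8 of 8. The 243 cycling-like cells had 14 of 14. The other 3 precursor clusters met the rule for no name and are called by a gene among those that lead them: Ptgs2-led (1630 cells), Cilp-led (732 cells, with C1qtnf3 and Eln) and Hist1h1c-led (77 cells). The summed level of 8 general precursor markers lay between 73525 and 94619 CPM (a gene's UMIs scaled to a common total per class) in the 7 precursor clusters. It was 42318 CPM in macrophage or monocyte-like cells (46), 19156 CPM in erythroid-like cells (18, all in library 1) and 18306 CPM in endothelial-like cells (49). Precursor transcripts were thus also counted in these few cells. Over the 7 precursor clusters the 8 endothelial markers summed to 26.2 to 35.3 CPM, against 6224 CPM in endothelial-like cells, and the 10 macrophage markers to 32.5 to 41.1 CPM, against 9825 CPM in macrophage or monocyte-like cells. The 5 erythroid markers set the libraries apart. They summed to between 839 and 878 CPM in 6 precursor clusters and to 6448 CPM in cycling-like cells in library 1, against 14.7 to 21.2 CPM in the 7 precursor clusters in library 2.

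In GRCm38 (GENCODE annotation) the members are protein-coding genes on 8 chromosomes. Mmp2 lies on chromosome 8 at 92827291 to 92853420, Mmp3 on chromosome 9 at 7445822 to 7455975, Mmp14 on chromosome 14 at 54431612 to 54445364 and Mmp23 on chromosome 4 at 155650655 to 155653384. Timp1 lies on chromosome X at 20870166 to 20874735 and Timp3 on chromosome 10 at 86300372 to 86349506, each inside a synapsin gene on the opposite strand (Syn1 and Syn3). Syn1 had 151 UMIs beside 13323 of Timp1, and Syn3 had 322 beside 28633 of Timp3. Timp2 lies on chromosome 11 at 118301069 to 118355740 and encloses Cep295nl on its own strand. Adamts2 lies on the same chromosome at 50602084 to 50807573. Adamts5 (85856173 to 85901828) and Adamts1 (85793827 to 85803113) are neighbours on chromosome 16, 53.1 kb apart on the minus strand.

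Promoter sequence (250 bases before to 50 after the start site, RefSeq, GRCm38.p6) was found for 8 of the 10 genes. That of Mmp3, the gene whose level differed most between precursor states, is shown beside those of the 3 inhibitors. Capitals mark exact matches to the letters of an AP-1 site (TGAGTCA) or a TATA box (TATAAA), searched on both strands.
Mmp3, chr9:7445572-7445871, plus strand: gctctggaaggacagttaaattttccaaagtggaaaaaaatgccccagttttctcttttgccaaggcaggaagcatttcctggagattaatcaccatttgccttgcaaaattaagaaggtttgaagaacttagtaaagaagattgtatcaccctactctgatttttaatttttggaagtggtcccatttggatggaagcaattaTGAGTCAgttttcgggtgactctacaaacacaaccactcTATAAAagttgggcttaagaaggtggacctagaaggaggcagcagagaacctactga
Timp1, chrX:20869916-20870215, plus strand: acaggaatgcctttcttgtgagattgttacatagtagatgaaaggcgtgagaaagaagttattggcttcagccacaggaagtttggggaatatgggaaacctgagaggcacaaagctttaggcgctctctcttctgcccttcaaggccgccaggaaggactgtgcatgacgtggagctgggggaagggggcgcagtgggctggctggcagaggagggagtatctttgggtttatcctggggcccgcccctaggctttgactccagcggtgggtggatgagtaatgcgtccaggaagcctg
Timp2, chr11:118355362-118355661, minus strand: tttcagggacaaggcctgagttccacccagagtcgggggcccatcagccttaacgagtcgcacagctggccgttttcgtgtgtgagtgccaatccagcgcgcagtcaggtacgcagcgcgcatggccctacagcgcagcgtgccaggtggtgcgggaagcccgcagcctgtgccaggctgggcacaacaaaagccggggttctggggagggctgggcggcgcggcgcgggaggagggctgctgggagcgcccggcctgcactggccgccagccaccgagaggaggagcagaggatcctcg
Timp3, chr10:86300162-86300461, plus strand: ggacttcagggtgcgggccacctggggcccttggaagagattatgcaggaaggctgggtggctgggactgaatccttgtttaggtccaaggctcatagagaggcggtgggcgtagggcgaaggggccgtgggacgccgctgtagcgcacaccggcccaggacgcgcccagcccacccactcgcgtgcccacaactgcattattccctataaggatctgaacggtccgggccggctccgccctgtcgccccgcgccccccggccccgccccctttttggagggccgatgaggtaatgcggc
Among the 8 genes an exact TGAGTCA match was found in the window of Mmp3, starting at position -46, and in no other. Of 32817 promoter windows, 5.21% held one. AP-1 sites with other letters were not searched for, so the other windows may hold such sites. A TATA match was found in Mmp3, starting at position -7, and in Adamts1, starting at -32, and in 13.6% of all windows. Positions count from the annotated start site, and whether either match acts as a TATA box was not tested. A GC box (GGGCGG) was found in at least 1 window of each of the other 7 genes and in 35.6% of all windows, but not in that of Mmp3. The Mmp3 window held 1 CpG and those of Timp1, Timp2 and Timp3 held 8, 25 and 24, against a median of 7 over all windows. These matches are descriptions of the letters in the windows, and binding was not measured.

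The first comparison set committed preadipocyte-like cells against Dpp4-type progenitor-like cells. Committed cells carried fewer transcripts of the abundant inhibitors Timp2 and Timp3 and of the aggrecanase Adamts5, and more of the stromelysin Mmp3 and of Timp1. Mmp2, Mmp14, Adamts1 and Adamts2 had log2 folds between -0.26 and 0.11. With 1 library for each condition there is no replicate of the sort, and the classes were made from these cells, so folds are descriptions with 95% intervals that cover counting error only. CPM values are UMIs summed over the cells of a class, and a fold of 2 or more with at least 10 CPM on either side is called a difference. By that rule, 339 of 6986 genes (4.85%) were higher and 341 (4.88%) lower in committed cells. Of the 10 members 1 was higher and 2 were lower. The median log2 fold was -0.17 over the members and -0.15 over all genes. TMM scaling adds 0.15 to each log2 fold of this comparison, which turns the sign of Adamts2.

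Mmp3, the stromelysin, degrades proteoglycans and basement membrane proteins and activates other proMMPs. It stood at 55.4 CPM in library 1 and 83.1 CPM in library 2 in committed cells, against 10.3 and 13.9 CPM in Dpp4-type cells. Committed cells were higher in both libraries, with no overlap, by a log2 fold of 2.53 (2.35 to 2.71). The Dpp4-type level is close to the 10.4 CPM (10 UMIs) of endothelial-like cells, in which precursor transcripts were also counted. The fold is thus measured from a low level, near that of these cells.

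Mmp2, the gelatinase, stood at 538 and 578 CPM in committed cells, against 645 and 699 CPM in Dpp4-type cells (log2 fold -0.26, -0.30 to -0.23). Mmp14, its membrane-bound activator, stood at 227 and 243 CPM, against 208 and 228 CPM (0.11, 0.055 to 0.17). So the activator and its substrate were nearly level between the classes while Timp2 was not. Mmp23, a membrane-tethered protease of uncertain substrates, stood at 305 and 288 CPM, against 421 and 436 CPM (-0.53, -0.58 to -0.48). Its values did not overlap between the classes, and the difference was under 2-fold.

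Adamts5 stood at 159 and 157 CPM in committed cells, against 472 and 452 CPM in Dpp4-type cells. This is the lowest log2 fold of the set, at -1.55 (-1.61 to -1.49). Its neighbour Adamts1, a versican-cleaving protease, stood at 330 and 341 CPM, against 320 and 312 CPM (0.086, 0.039 to 0.13). Its sign turned in 3 of 14 alternatives, which ran from -0.21 with called doublets kept to 0.52 with the listed genes kept in clustering. The 2 neighbouring genes therefore did not differ alike. Adamts2, which removes the amino-terminal propeptide of fibrillar procollagens, stood at 293 and 290 CPM, against 309 CPM in each library of Dpp4-type cells (-0.083, -0.13 to -0.034).

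Timp2 stood at 1092 and 1078 CPM in committed cells, against 1995 and 2017 CPM in Dpp4-type cells, with a log2 fold of -0.89 (-0.91 to -0.86). It did not reach 2-fold, and its libraries were close in each class and far apart between classes. Timp3 stood at 190 and 181 CPM, against 455 and 487 CPM (-1.34, -1.39 to -1.29). Timp1 went the other way, at 161 and 223 CPM, against 109 and 123 CPM (0.73, 0.66 to 0.80). Its fold was 0.24 at Leiden resolution 0.3 and 1.22, a 2-fold difference, with the listed genes kept in clustering. Its 2 libraries differed more within committed cells than those of Timp2 or Timp3. The 3 inhibitors thus did not share a direction.

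**Figure D1:**
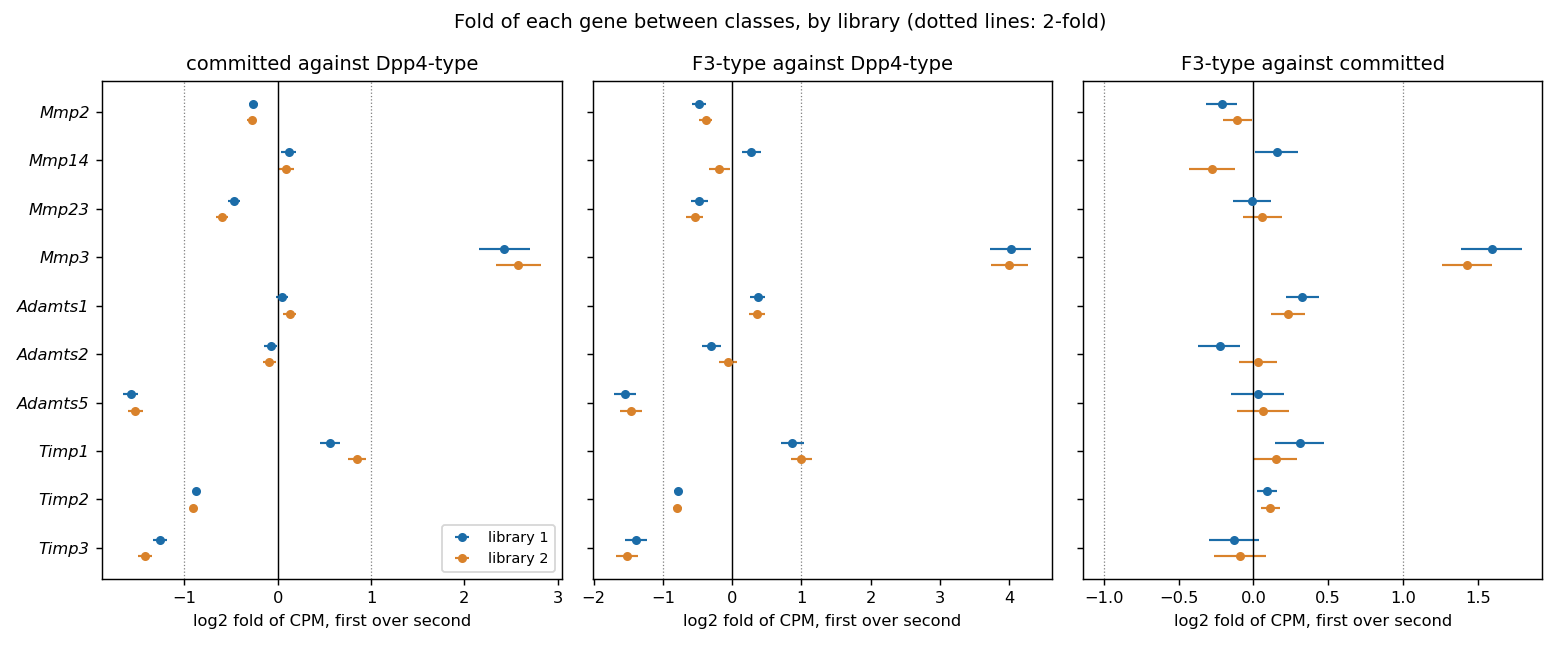
Log2 fold of each gene's CPM (x axis) between classes, with 1 point per library, 95% counting intervals as bars and dotted lines at 2-fold. Mmp3 lies beyond 2-fold to the right in all 3 panels, Timp3 and Adamts5 lie beyond 2-fold to the left in both comparisons with Dpp4-type cells, and Mmp14 lies on opposite sides of 0 in the 2 libraries in both comparisons of F3-type cells.

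Fewer committed than Dpp4-type cells held a transcript of Timp3 or Adamts5 at equal depth, and more held one of Timp1. Each cell was thinned to 7463 UMIs, which left out 375 cells of library 1 and 312 of library 2 with fewer. Timp2 was found in 99.9% of thinned committed cells and 100% of Dpp4-type cells, shares too near the ceiling to differ. Timp1 was found in 62.5% (60.1 to 64.9) and 52.0% (49.7 to 54.4). Timp3 was found in 70.2% (68.0 to 72.4, Clopper-Pearson) and 94.7% (93.5 to 95.7). Adamts5 was found in 63.1% (60.7 to 65.4) and 94.0% (92.8 to 95.1). Without thinning these shares were 72.5% and 69.4% for Timp1, 81.2% and 97.5% for Timp3, and 74.0% and 97.0% for Adamts5, at median depths of 11365 UMIs in committed and 13551 UMIs in Dpp4-type cells. The trio that activates Mmp2 (Mmp14, Timp2 and Mmp2) was detected together in 77.7% of thinned committed cells and 76.5% of Dpp4-type cells, shares whose intervals overlap (75.6 to 79.6 and 74.5 to 78.5).

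Mmp3 was spread unevenly over cells. It was found in 24.2% (22.2 to 26.4) of thinned committed cells, against 8.68% (7.41 to 10.1) of Dpp4-type cells (31.6% and 14.7% without thinning). Among cells outside the lineage it was found in 3 of 38 endothelial-like cells (7.89%, 1.66 to 21.4) and in 6 of 21 macrophage or monocyte-like cells (28.6%, 11.3 to 52.2). None of the 14 thinned erythroid-like cells had it, which allows a share of up to 23.2%. The share in Dpp4-type cells lies within the wide endothelial-like interval. Precursor transcripts were also counted in endothelial-like cells, so these give no clean background level. Whether Dpp4-type cells express Mmp3 is therefore not settled. The committed share lies within the wide interval of macrophage or monocyte-like cells, whose Mmp3 level was 27.7 CPM (14.3 to 48.3, from 12 UMIs), against 69.5 CPM in committed cells. Folds and ratios of Mmp3 over Dpp4-type cells are thus set against a low level, of which the part due to background is not known. In committed cells its variance was 4.01 times its mean after thinning, against 1.04 in Dpp4-type cells. For Mmp2 these ratios were 1.47 and 1.24.

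**Figure D2:**
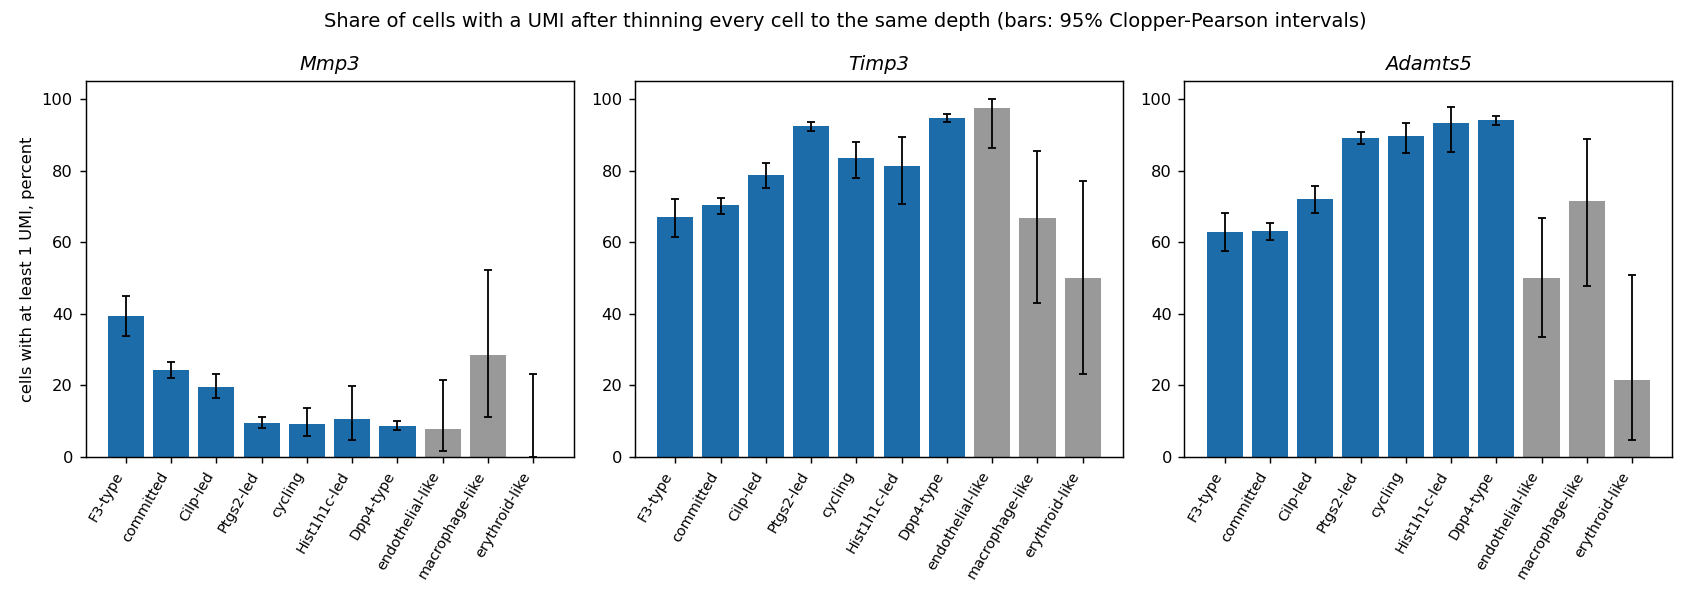
Percent of cells (y axis) with at least 1 UMI of Mmp3, Timp3 or Adamts5 after thinning each cell to 7463 UMIs, both libraries together, with 95% Clopper-Pearson intervals; precursor clusters are blue and clusters outside the lineage grey. Mmp3 stands highest in F3-type cells (39.3%), while Timp3 and Adamts5 are lowest among precursors in F3-type and committed cells.

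The next comparison set F3-type stromal-like cells against Dpp4-type cells. The same members stood apart in the same directions, and Mmp3 more so. Mmp3 stood at 167 CPM in library 1 and 224 CPM in library 2 in F3-type cells, against 10.3 and 13.9 CPM in Dpp4-type cells, a log2 fold of 4.02 (3.83 to 4.22). With clusters from 3000 variable genes it was 2.96. Over all genes 413 of 7149 (5.78%) were higher and 309 (4.32%) lower in F3-type cells, and of the members 1 was higher and 2 were lower. The members' median log2 fold was -0.30 and that of all genes -0.082. This comparison shares its Dpp4-type cells with the one before.

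Timp3 stood at 174 and 171 CPM in F3-type cells, against 455 and 487 CPM in Dpp4-type cells (log2 fold -1.45, -1.56 to -1.34). Adamts5 stood at 162 and 165 CPM, against 472 and 452 CPM (-1.50, -1.62 to -1.39). Timp2 stood at 1162 and 1166 CPM, against 1995 and 2017 CPM (-0.78, -0.83 to -0.74). In all 3 genes the F3-type libraries were close to each other and far from those of Dpp4-type cells.

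Timp1 was highest of all precursor clusters in F3-type cells, at 199 and 247 CPM, against 109 and 123 CPM in Dpp4-type cells (0.94, 0.83 to 1.05). It reached 2-fold in library 2 but not in library 1 (0.87), and was 0.13 where clusters were made from 3000 variable genes. Adamts1 stood at 414 and 401 CPM, against 320 and 312 CPM (0.37, 0.29 to 0.44), but its fold was -0.16 with 3000 variable genes and 0.85 with the listed genes kept in clustering. Mmp2 stood at 464 and 537 CPM, against 645 and 699 CPM (-0.42, -0.49 to -0.35). Mmp23 was lower at -0.50 (-0.59 to -0.42) and Adamts2 at -0.17 (-0.27 to -0.082). Mmp14 had no settled direction, at 252 and 201 CPM in F3-type cells, against 208 and 228 CPM in Dpp4-type cells.

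Summed levels of 18 genes induced by tissue dissociation, which include the AP-1 genes Fos and Jun, were 12173 CPM in F3-type cells, 9495 CPM in committed cells and 8073 CPM in Dpp4-type cells. All 18 were detected in each class. The Cilp-led cluster had the highest sum, at 15026 CPM. Mmp3 stood at 43.8 CPM in that cluster, 195 CPM in F3-type, 69.5 CPM in committed and 12.0 CPM in Dpp4-type cells. Of the 18, 5 were 2-fold or more higher in F3-type and 1 in committed cells against Dpp4-type cells. Over all genes these shares were 5.78% and 4.85%. The part of these genes in the Mmp3 difference was not tested.

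F3-type cells were also set against committed cells. Here 209 of 6854 genes (3.05%) were higher and 111 (1.62%) lower, and of the 10 members only Mmp3 differed by 2-fold, at 195 CPM against 69.5 CPM over both libraries (log2 fold 1.49, 1.36 to 1.62). The fold was 1.59 in library 1 and 1.43 in library 2. Adamts1 was higher by 0.28 (0.20 to 0.36), Timp1 by 0.22 (0.11 to 0.32) and Timp2 by 0.10 (0.056 to 0.15), whereas Mmp2 was lower at -0.16 (-0.23 to -0.088). TMM scaling takes 0.11 from each log2 fold here and puts Timp2 at -0.0081, and with clusters from 3000 variable genes Timp1 was at -0.32 and Adamts1 at -0.0067. The intervals of Mmp14, Mmp23, Timp3, Adamts2 and Adamts5 included 0. With thinning Mmp3 was found in 39.3% of F3-type cells (33.9 to 44.8), against 24.2% of committed cells. In 5 other clusterings, each of which gave the F3-type name to 2 clusters, the log2 fold was between 0.45 and 1.22, and it was under 2-fold in 4 of them.

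Over all 7 precursor clusters, 3 members ranged by more than 2-fold. The share of all genes that range as far was not computed, so this count is not read as particular to the members. The highest cluster over the lowest was 16.2-fold for Mmp3, 2.93-fold for Adamts5 and 2.73-fold for Timp3. The other ranges were 1.95 for Timp1, 1.85 for Timp2, 1.63 for Mmp23, 1.53 for Adamts1, 1.47 for Mmp14, 1.34 for Mmp2 and 1.24 for Adamts2. For Timp2 the order was Dpp4-type (2005 CPM), Ptgs2-led (1724), Hist1h1c-led (1548), cycling-like (1441), Cilp-led (1209), F3-type (1164) and committed cells (1085). In that order Hist1h1c-led and cycling-like cells, and Cilp-led and F3-type cells, had overlapping intervals. For Timp3 it was Dpp4-type (470 CPM), Ptgs2-led (377), cycling-like (332), Hist1h1c-led (272), Cilp-led (234), committed (186) and F3-type cells (172), of which Hist1h1c-led and Cilp-led cells, and committed and F3-type cells, overlapped.

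Adamts5 followed a similar order, with Dpp4-type cells (463 CPM) above cycling-like (399), Ptgs2-led (382), Hist1h1c-led (354), Cilp-led (223), F3-type (163) and committed cells (158). Its neighbours from cycling-like to Hist1h1c-led overlapped, as did F3-type and committed cells. Mmp3 ran the other way, with F3-type (195 CPM), committed (69.5) and Cilp-led cells (43.8) above cycling-like (20.1), Ptgs2-led (13.7), Hist1h1c-led (13.6) and Dpp4-type cells (12.0). The last 3 of these overlapped. Cycling-like cells stood at 10.1 CPM in library 1, close to the 10.3 CPM of Dpp4-type cells there, and at 25.6 CPM in library 2, where 1 cell held 18 of 65 UMIs. Timp1 joined a high level in F3-type and committed cells with one of 182 CPM in Ptgs2-led cells, whose Timp2 and Timp3 were also high. Mmp14 was highest in Cilp-led cells (260 CPM) and lowest in cycling-like cells (177 CPM). Adamts1 was high in F3-type (407 CPM) and Ptgs2-led cells (403 CPM), which overlapped, and lowest in Cilp-led cells (267 CPM).

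**Figure D3:**
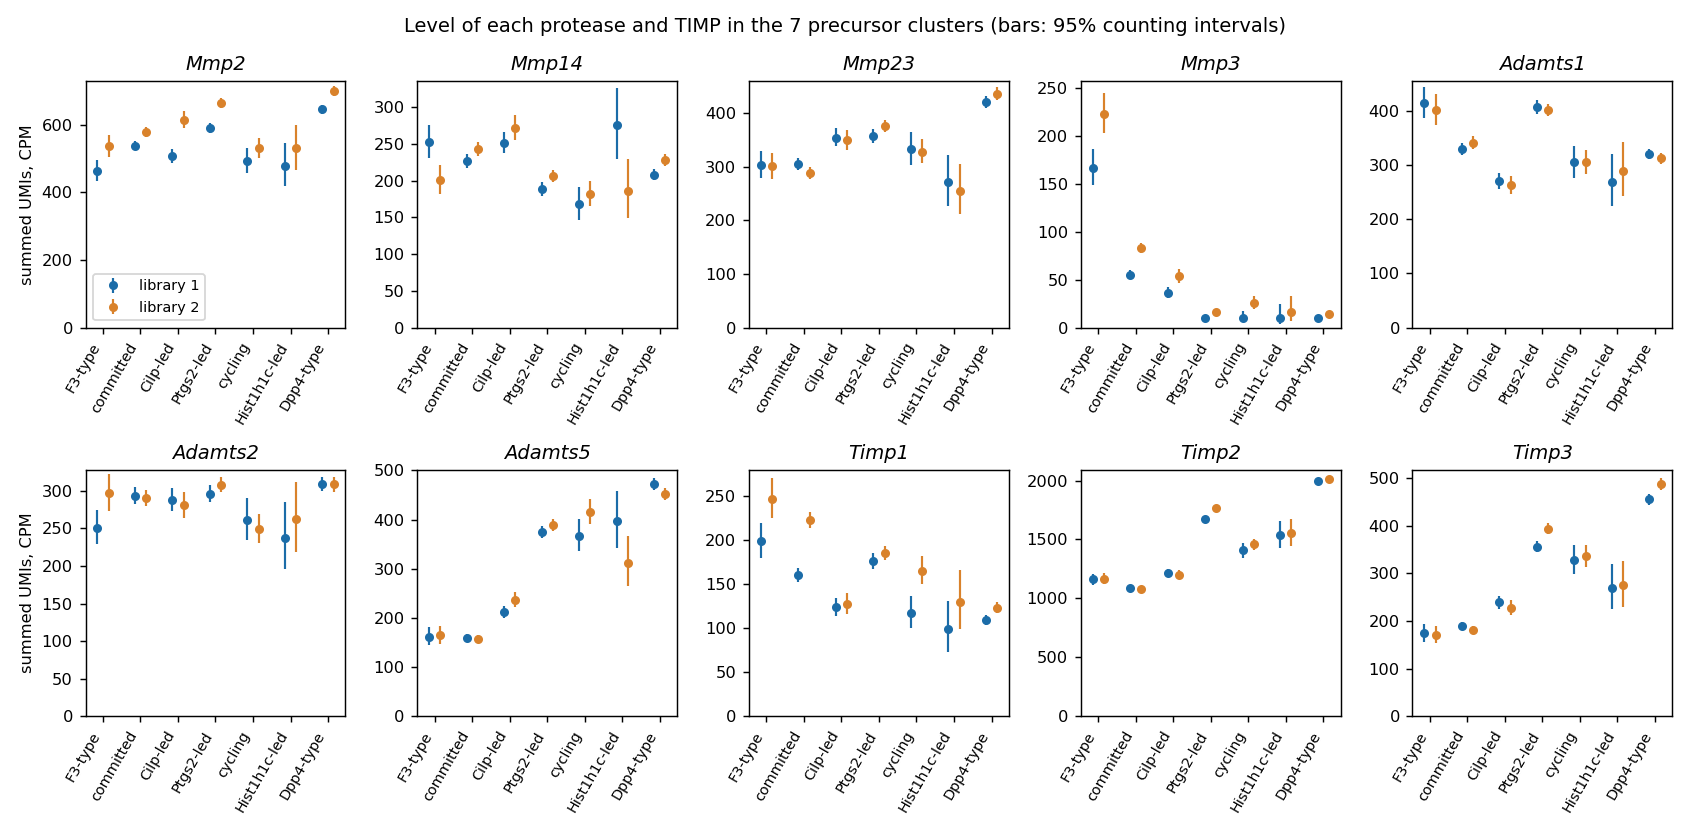
CPM of summed UMIs (y axis, from 0) of each of the 10 genes in the 7 precursor clusters (x axis), with 1 point per library and 95% counting intervals as bars. Timp2, Timp3 and Adamts5 are highest in Dpp4-type cells and lowest in F3-type and committed cells, Mmp3 has the opposite pattern, and Adamts2 stays between 237 and 309 CPM in every cluster and library.

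Endothelial-like cells had another profile than the precursors. In these cells Timp3 stood at 848 and 733 CPM, above each of the 7 precursor clusters (172 to 470 CPM), and Adamts1 at 460 and 474 CPM. Timp2 was low there, at 484 and 404 CPM, and made up 34.5% of TIMP UMIs, against 74.2% to 80.0% in the precursor clusters. Their median of 19074 UMIs was the highest of any cluster, and 6 of 8 mural, 6 of 8 adipocyte, 6 of 12 committed and 5 of 5 erythroid markers were also raised in them. The part of doublets in these levels was not tested. Timp2 made up 77.5% of TIMP UMIs in macrophage or monocyte-like cells and 72.8% in erythroid-like cells, close to the precursor clusters.

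The balance of proteases to inhibitors was taken as the summed UMIs of the 7 proteases over those of the 3 TIMPs. UMIs from transcript 3′ ends do not depend on transcript length, but genes differ in how well they are captured. The ratio itself is therefore no ratio of molecules or of protein, and only its difference between classes is read. The make-up of the sums also differs between classes, so unequal capture need not cancel in that difference. It was 1.32 in library 1 and 1.34 in library 2 in committed cells and 1.31 and 1.34 in F3-type cells, against 0.933 in each library of Dpp4-type cells. The log2 difference was 0.51 (0.49 to 0.54) for committed and 0.51 (0.46 to 0.56) for F3-type cells against Dpp4-type cells, and -0.0035 (-0.056 to 0.049) for F3-type against committed cells. In library 1 the first of these was 0.50 and in library 2 it was 0.52.

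The higher balance went with fewer inhibitor transcripts, not with more protease transcripts. The TIMP sum was 1462 CPM in committed and 1560 CPM in F3-type cells, against 2591 CPM in Dpp4-type cells. The protease sum was also lower, at 1945 and 2069 CPM, against 2417 CPM. Mmp3 made up 3.57% of protease UMIs in committed and 9.44% in F3-type cells, against 0.498% in Dpp4-type cells, while Adamts5 made up 8.12% in committed and 19.2% in Dpp4-type cells. The remaining precursor clusters lay between: Cilp-led cells at 1.27, cycling-like cells at 1.04, Ptgs2-led cells at 1.01 and Hist1h1c-led cells at 0.980. Cilp-led cells differed between libraries, at 1.22 and 1.33 with intervals that did not overlap on the log2 scale (0.24 to 0.33 and 0.36 to 0.46).

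Protease and inhibitor pairs known to interact did not all follow the sum. The ratio of Mmp14 to Timp2 was 0.217 in committed and 0.195 in F3-type cells, against 0.109 in Dpp4-type cells, log2 differences of 0.997 (0.94 to 1.06) and 0.84 (0.73 to 0.95). For Mmp2 to Timp2 it was 0.515 and 0.430, against 0.335 (0.62 and 0.36). Mmp3 to Timp1 had the widest range, at 0.362 and 0.876, against 0.104 (1.80 and 3.08). Adamts5 to Timp3 was 0.851 in committed cells, against 0.984 in Dpp4-type cells, a log2 difference of -0.21 (-0.29 to -0.13). It was -0.31 (-0.42 to -0.20) in library 1 and -0.099 in library 2, where the interval included 0, as did that of F3-type cells (-0.054, -0.22 to 0.11). The pairs with Timp2 stood higher in committed and F3-type cells, and the pair of Adamts5 and Timp3 did not.

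**Figure D4:**
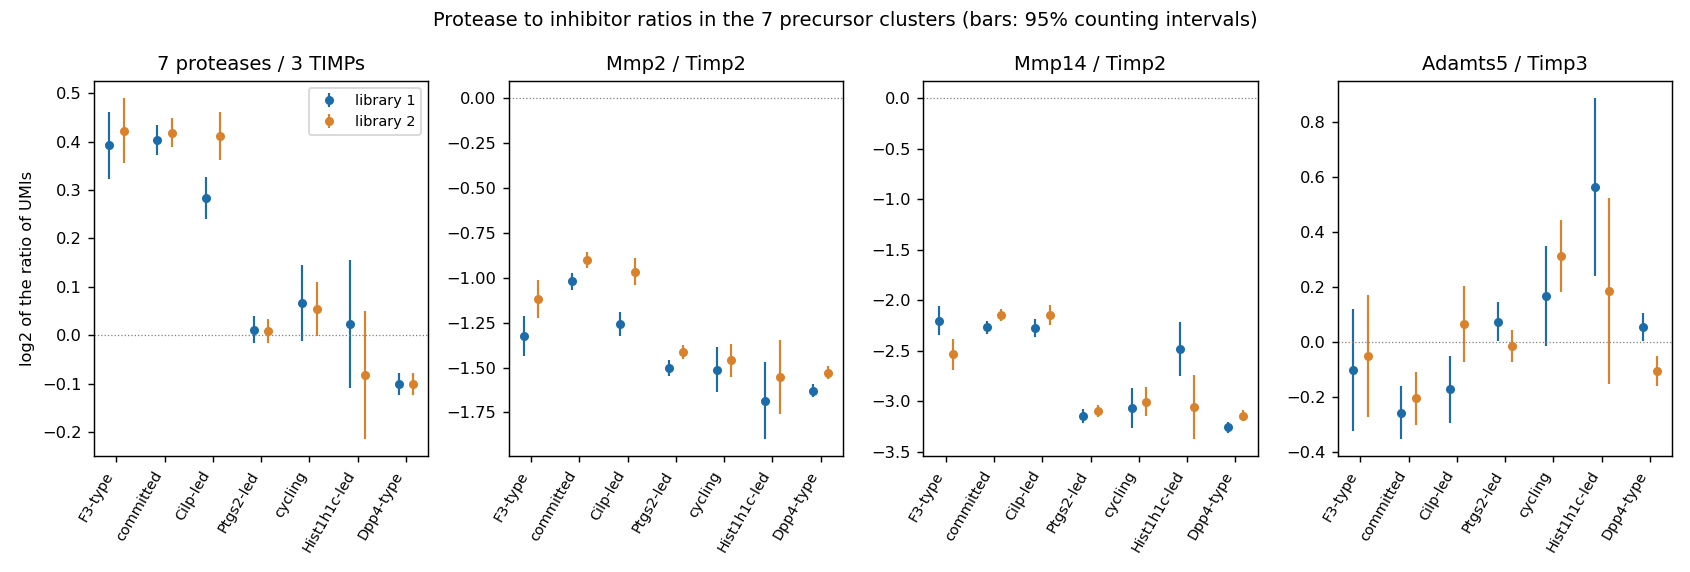
Log2 of the ratio of UMIs (y axis) of all 7 proteases to the 3 TIMPs and of 3 pairs, in the 7 precursor clusters (x axis), with 1 point per library and 95% counting intervals as bars. The first 3 panels stand higher in F3-type, committed and Cilp-led cells than in Dpp4-type cells, and the Adamts5 to Timp3 panel does not.

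Since cluster borders are a choice, precursors other than cycling-like cells were also sorted by a score, the committed markers minus the Dpp4-type markers, and divided into 5 bins of equal size. From bin 1 to bin 5 the balance was 0.931, 0.961, 1.05, 1.26 and 1.42. Timp2 was at 2029, 1890, 1583, 1167 and 1028 CPM. Timp3 was at 482, 418, 340, 199 and 176 CPM, and Adamts5 at 468, 433, 334, 189 and 145 CPM, each lower in every further bin. Mmp3 was at 11.5, 10.9, 24.7, 81.5 and 79.8 CPM, level in the first 2 bins and again in the last 2, where bin 4 held 75.8% of F3-type cells. The 18 dissociation genes summed to 7472, 7628, 8732, 10650 and 11532 CPM over the same bins, and their part in these values was not tested. Median depth was 13524 UMIs in bin 1 and 11005 in bin 5, and 10.2%, 8.50%, 3.85% and 4.59% of cells lay within 0.1 SD of the 4 borders.

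**Figure D5:**
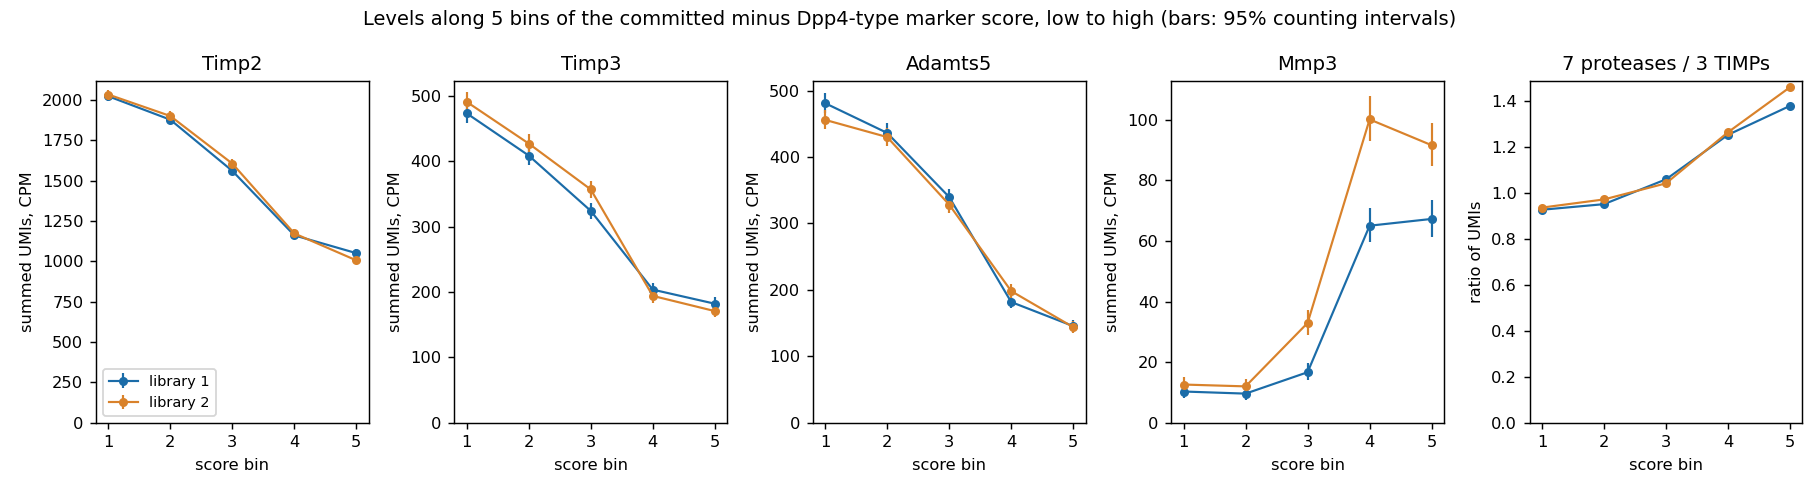
CPM of summed UMIs of 4 genes, and the ratio of protease to TIMP UMIs (y axes, from 0), in 5 equal bins of the committed minus Dpp4-type marker score, low to high (x axis), with 1 line per library and 95% counting intervals as bars on the 4 genes. Timp2, Timp3 and Adamts5 are lower in each further bin in both libraries and the ratio is higher.

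Library 1 was set against library 2 within each class, with no diet attached. In Dpp4-type cells 6 of 6874 genes (0.0873%) were 2-fold or more higher in library 1 and 7 (0.102%) lower. In committed cells 5 of 6493 (0.077%) were higher and 8 (0.123%) lower, and in F3-type cells, the smallest class, 81 of 6994 (1.16%) were higher and 58 (0.829%) lower. None of the 10 members was among them in any of the 3 classes. Mmp3 was lower in library 1 in each class, at 10.3 against 13.9 CPM in Dpp4-type cells (log2 fold -0.44, -0.77 to -0.10), 55.4 against 83.1 CPM in committed cells (-0.58, -0.74 to -0.43) and 167 against 224 CPM in F3-type cells (-0.42, -0.63 to -0.21). Timp1 was also lower in each, at -0.18 (-0.28 to -0.074), -0.47 (-0.56 to -0.38) and -0.31 (-0.51 to -0.12). Mmp2 was lower by smaller amounts, at -0.12, -0.10 and -0.21. Timp2 lay within 0.02 of 0 in all 3 classes, with intervals that included 0. The balance differed little, at 0.933 in each library in Dpp4-type cells and 1.06 against 1.07 over all precursors. Each library is also 1 capture, from a number of pups that the labels do not state, so diet, capture and pups cannot be told apart.

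Other genes of the extracellular protease network were taken from 12 lists of 138 genes. Over all measured genes 4.85% were 2-fold or more higher and 4.88% lower in committed than in Dpp4-type cells. The lists are short, so their counts are not read as results about the lists. In committed against Dpp4-type cells, 1 of 19 further MMP genes reached 10 CPM and it was 2-fold higher: Mmp19, at 52.9 against 11.2 CPM. Of 16 further ADAMTS proteases 7 were measured, with 2 higher and 2 lower. Adamts9, Adamts15 and Adamts16 among them were at 18.1 CPM or less in both classes. Adamts4, an aggrecanase like Adamts5, stood at 186 against 34.4 CPM (5.41-fold). Of 9 measured membrane ADAMs 1 was higher, Adam12 (100 against 15.7 CPM). Of 2 further inhibitors measured 1 was higher (Tfpi2, 114 against 51.0 CPM), and of 8 genes that regulate or clear MMPs 2 were higher (Thbs1, 416 against 181 CPM, and Thbs2, 171 against 64.2 CPM). These 3 were named after their values were seen.

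Genes lower in committed cells by 2-fold or more (4.88% of all genes) included 2 of the 3 measured ADAMTS-like genes. These resemble ADAMTS proteins without the protease domain: Adamtsl4 at 77.9 against 211 CPM and Adamtsl5 at 35.6 against 89.3 CPM. Pcsk6, 1 of 3 measured proprotein convertases, stood at 98.9 against 244 CPM. Pcolce2, an enhancer of procollagen processing, stood at 332 against 742 CPM, and was 1 of 3 measured genes of that group. Of 13 measured cathepsins and cystatins 1 was higher, beside 4.85% of all genes. Of 17 measured matrix substrates 3 were higher, of which Col4a1 (577 against 65.0 CPM) and Col4a2 (334 against 57.4 CPM) also name the committed class. Of 18 dissociation genes 1 was higher and none was lower. The aggrecanases Adamts5 and Adamts4 thus lay on opposite sides between these classes.

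In F3-type against Dpp4-type cells Adamts4 stood at 177 against 34.4 CPM and Tfpi2, a serine protease inhibitor, at 126 against 51.0 CPM. The small proteoglycan Bgn stood at 1777 against 412 CPM, Col4a1 at 367 against 65.0 CPM and Col4a2 at 278 against 57.4 CPM. Lower were Pcsk6 (55.5 against 244 CPM), Pcolce2 (291 against 742 CPM) and the basement membrane linker Nid1 (543 against 1163 CPM). In F3-type against committed cells, Adam12 was lower (35.9 against 100 CPM), and the genes higher with at least 50 CPM were dissociation genes, Nr4a1 (186 against 53.7 CPM), Jun (769 against 351 CPM), Hspa1a (144 against 67.6 CPM) and Fos (1970 against 951 CPM).

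Across the 14 points given by 7 clusters in 2 libraries, log2 levels of Timp2 and Timp3 had a Pearson r of 0.95, Timp3 and Adamts5 of 0.94, and Timp2 and Adamts5 of 0.92. Mmp3 and Adamts5 had -0.89, Timp1 and Adamts1 0.78, and Mmp3 and Timp1 0.72. The points share libraries and include clusters made from these cells, so these are descriptions. The genes most like Timp2 were Bmp1, the procollagen C-proteinase (r = 0.97), Ppp1r14b and Plxna1. Those most like Timp3 were Limch1, which is a Dpp4-type marker, Gpc6 and S100a16, each at 0.97. Those most like Adamts5 were Marcks, Chst1 and Sema3c, also a Dpp4-type marker, each at 0.98. Those most like Mmp3 were Sult5a1 (0.97), Gnas (0.97) and Slc10a6 (0.96), and those most like Timp1 were the chemokine gene Ccl8, the ferritin gene Fth1 (0.91 each) and Sned1 (0.88). Mmp2 was most like Clec3b (0.89) and Loxl2, and Mmp14 most like Sdf2 (0.92), Os9 and Eci1. Mmp23 was most like Fbxo18 (0.94), Ide and Xpot, Adamts1 most like Abl2 (0.86), Ndst1 and Col3a1, and Adamts2 most like Zdhhc1 (0.91), Clcn4 and Tmem42.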

How the data were processed

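The authors deposited 1 matrix of UMI counts, whole numbers per gene and barcode that were not normalized. Cell Ranger, Seurat 3.0.1 and the build mm10 are named, with no role, per the submitters' processing notes. Per the labels' protocols the chemistry was 10x Genomics 3′ version 2. The sources used here do not say how barcodes were filtered.

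Barcodes with at least 500 genes and at most 10% mitochondrial counts were kept. Scrublet called 12 of 6905 barcodes (0.174%), which were removed. At that share doublet calling has not worked, so other doublets remain. Counts were scaled to 10000, and 2000 variable genes without 365 listed, mitochondrial, ribosomal and cycling genes, 30 components and 15 neighbours entered Leiden clustering at resolution 0.5 (scanpy 1.11.5, leidenalg 0.10.2). A marker was raised with at least 20 CPM and 2-fold over other cells, and a name needed 3 raised markers and 33.3% of its list. The members, lists and thresholds were chosen with earlier results of these data known.

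Counts were summed per class and library and given as CPM, with exact Poisson intervals, conditional exact intervals of folds, Clopper-Pearson intervals of shares and delta-method intervals of log2 ratios, all at 95%. The floor of a count of 0 is 3 counts. No p-value was computed. The arithmetic of the folds and their intervals was checked on simulated counts drawn with counting error only. These hold no spread between cells or libraries, so they cannot test the intervals against such spread. Named list genes were up to 6 in each direction with 50 CPM and 2-fold, largest first, and some genes that the rules select are not reported here. The 3 genes most like each member had the highest Pearson r of log2(CPM + 5), among genes with 20 CPM in 1 cluster. Alternatives covered scaling with edgeR 4.0.16 TMM and DESeq2 1.42.0 size factors, cell filters, depth, clustering, each library alone and the genes in the sums. The score bins were added after the data were seen.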

Additional observations from a re-analysis of the deposited data

Results flagged for a closer look

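Mmp14 in F3-type stromal-like cells had opposite directions in the 2 libraries. Against Dpp4-type cells library 1 gave a log2 fold of 0.28 (0.14 to 0.42) and library 2 one of -0.18 (-0.34 to -0.030). Set against committed cells, library 1 gave 0.16 (0.013 to 0.30), while library 2 gave -0.28 (-0.43 to -0.12). F3-type cells held 252 CPM of Mmp14 in library 1 (491 UMIs in 169 cells) and 201 CPM in library 2 (392 UMIs in 186 cells). The difference between the libraries was not tested, since each is 1 sample.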

How the results depend on the processing

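Each library held all the compared classes, so their folds were also taken within each library. Each condition gave 1 library, and no result comes from a test. The log2 balance of committed minus Dpp4-type cells (0.51 as reported) was 0.56 at Leiden resolution 1, 0.45 at resolution 0.3, 0.54 with the listed genes kept in clustering, 0.32 without Timp2 and 0.42 without Timp3. That of F3-type minus Dpp4-type cells (0.51) was 0.41 with called doublets kept, 0.43 at resolution 1, 0.40 at resolution 0.3, 0.43 with 3000 variable genes, 0.44 with the listed genes kept, 0.68 with members weighed equally, 0.58 without Mmp2, 0.34 without Timp2 and 0.39 without Timp3. That of F3-type minus committed cells (-0.0035) was -0.11 with doublets kept, -0.12 at resolution 1, -0.075 with 3000 variable genes, -0.11 with the listed genes kept, 0.15 with equal weights and 0.085 without Mmp2.

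The count of members 2-fold apart between F3-type and committed cells (1) was 0 with doublets kept, at resolution 1, with 3000 variable genes and with the listed genes kept. The count of members ranging 2-fold over the precursor clusters (3) was 5 with doublets kept and 6 with 3000 variable genes. The cause of these changes was not tested. In 5 other clusterings 2 clusters took the F3-type name and held 523 to 1267 cells, of which 334 to 352 were among the 355. Dpp4-type cells numbered 764 to 3469, of which 732 to 1931 were among the 1931. Committed cells numbered 1145 to 2461, of which 1145 to 1743 were among the 1792. Keeping called doublets meant clustering again, which gave 2860 Dpp4-type and 616 F3-type cells. Timp3, Adamts5 and Mmp3 kept their direction and 2-fold size in 14 of 14 alternatives in both comparisons with Dpp4-type cells. There Mmp3 ran from 2.30 to 2.72 in committed and from 2.96 to 4.06 in F3-type cells. The alternative minimum of 50 CPM in place of 10 CPM leaves a fold as it was. TMM and DESeq2 scaling only shift all log2 folds of a comparison, here by 0.037 to 0.15. Of 539 alternative folds of single members, those under the 50 CPM minimum included, 37 had the other sign. With 1 library for each condition and barcodes that no label ties to a diet, the intervals cover counting error only, and doublets beyond the 12 called remain.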
